A study of Homo sapiens with 6 samples.

Results

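Kinesins are the motor proteins that walk along microtubules, and 41 genes of the deposited table carry a kinesin symbol, of 35106 genes in all. Members were taken by symbol alone (KIF or KIFC with its number and letter), with no cutoff on expression, although earlier results of these data were known. By what is known of their roles, 14 were classed as mitotic, 15 as transport motors and 12 as neither, the last being mostly ciliary or signalling kinesins. RNA was sequenced from HCT116 cells, an established human colon carcinoma line labelled wild type, in 3 libraries from cells given curcumin, the yellow polyphenol of turmeric, and in 3 libraries from untreated cells. Curcumin was given for 24 h at 30 µM, a unit that the labels spell like micrometres. All cells grew in DMEM with fetal bovine serum, and no solvent is named for the untreated cells. No label states that the replicates were separate cultures, so the spread behind each p-value may be only technical.

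A kinesin couples ATP hydrolysis in its motor domain to steps along a microtubule, and most walk towards the fast-growing plus end. Transport kinesins carry vesicles, mitochondria, mRNA and ciliary cargo through the cytoplasm, often through light chains or adaptors that choose the cargo. Mitotic kinesins build the bipolar spindle, move and align chromosomes and complete cytokinesis, and their transcripts are known to be made mainly in the G2 and M phases, so that their level follows the share of dividing cells. Some members do not walk at all: the depolymerases remove tubulin from microtubule ends.

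Levels are given in CPM, rounded estimated counts set to a common library total after TMM scaling, which trims extreme genes before libraries are aligned. Library totals were 16663562 to 17893056 counts after curcumin and 18154380 to 20311769 in untreated cells, and a floor of 3 counts was 0.224 to 0.238 CPM and 0.114 to 0.123 CPM, for counting error only. TMM factors were 0.716 to 0.804 after curcumin and 1.30 to 1.34 in untreated libraries. Library size alone in their place moved the median log2 fold change of all tested genes by -0.80, so directions hold only against the rest of the transcripts. Replicates differed by more than sampling noise in every pair (chi-square per degree of freedom 11.6 to 75.3). Of 6 colon epithelial markers, KRT8, KRT18, KRT19, EPCAM and CDH1 were present at 94.8 CPM or more in every library, while VIL1 (villin) stayed at or below 0.873 CPM. KRT8, EPCAM, KRT18 and KRT19 rose (log2 1.26 ± 0.15, 0.89 ± 0.15, 0.68 ± 0.15 and 0.60 ± 0.19), of which KRT8 alone was also called with library size alone, and CDH1 was not called. The 6 markers of other cell types summed to 24.4 to 65.4 CPM after curcumin and 26.0 to 31.0 CPM in untreated cells. Of those 6, CD3E was 0 throughout, COL1A1 made up most of the untreated sum, and PECAM1, an endothelial marker, had 6.65, 13.02 and 25.0 CPM after curcumin against 0, 0.123 and 0.157 CPM in untreated cells. LYZ, a myeloid marker, also rose (1.48 ± 0.264 CPM after curcumin and 0.160 ± 0.107 CPM in untreated cells, SD, n = 3 each). Their part in the results was not tested.

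Kinesins were lower after curcumin more often than higher. Of the 41 genes, 35 passed the filter on low counts and were tested with edgeR's quasi-likelihood test, with a call at a Benjamini-Hochberg adjusted p under 0.05 over all 13718 tested genes. Of these 35, 14 fell, 5 rose and 16 were not called, that is, 40.0% lower and 14.3% higher, where 28.9% of all tested genes were lower and 27.2% were higher (56.1% called in all). In 13 kinesins every curcumin library lay below every untreated library, and in 5 every one lay above, against 33.1% and 30.9% of all tested genes. The median log2 fold change was -0.50 over the tested kinesins and -0.04 over all tested genes. The kinesin median was -0.21 without untreated replicate 2 and -0.26 with the length trend removed, where that of all genes was -0.018 and 0.034. With library size alone 27 fell and 1 rose, where 56.5% and 9.62% of all genes did. With each library's trend with transcript length removed 10 fell and 4 rose, where 22.1% and 25.6% of all genes did.

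**Figure D1:**
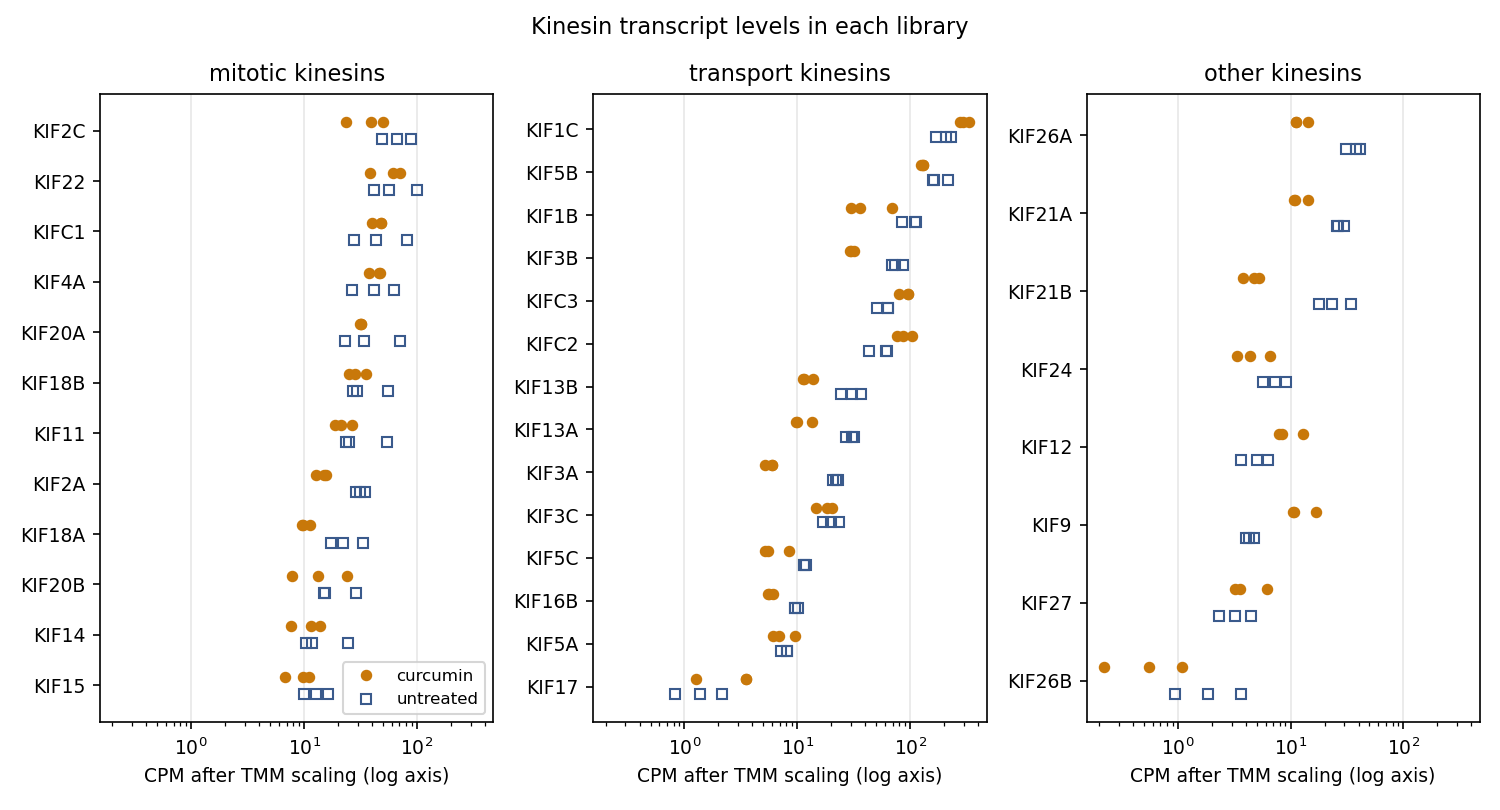
CPM after TMM scaling on a log axis (x) for each kinesin (y) with counts in all 6 libraries, in panels of mitotic, transport and other kinesins. Each point is 1 library, filled for curcumin and open for untreated cells; KIF7, with 0 counts in curcumin replicate 1, and the 6 genes below the filter are left out. The transport motors KIF3A and KIF3B show separate groups with little spread. The groups overlap for 10 of the 12 mitotic kinesins, KIF18A and KIF2A being the exceptions. Of all tested genes, 33.1% lay lower after curcumin without overlap and 30.9% lay higher without overlap. Every mitotic kinesin shown is highest in untreated replicate 2, against 18.5% of all tested genes.

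Mitotic kinesins were mostly not called. Of 12 tested, 3 fell (25.0%, near the 28.9% of all genes), none rose and 9 had no call, with a median log2 fold change of -0.46. The 3 that fell were KIF18A, KIF2A and KIF2C. All 3 were also called with the length trend removed (log2 -1.11, -1.03 and -0.89). Under library size alone 12 of 12 fell, where 56.5% of all genes did.

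KIF18A, a plus-end motor of the kinesin-8 family that damps chromosome movement at metaphase (chr11:28020620-28108308, 17 exons, GENCODE 29 on GRCh38), had 11.4, 9.60 and 9.69 CPM after curcumin against 22.1, 33.0 and 17.4 CPM in untreated cells. Its log2 fold change was -1.24 ± 0.25 (SE, edgeR adjusted p = 0.0020), and the groups did not overlap. KIF2A, a depolymerase that works at spindle poles and also in neurons (chr5:62306162-62537249), had 15.7, 12.9 and 15.1 CPM after curcumin against 28.8, 34.3 and 31.1 CPM in untreated cells. This was the steadiest fall of the class (log2 -1.11 ± 0.17, edgeR adjusted p = 0.00041). KIF2C, the centromeric depolymerase MCAK that corrects faulty attachments (chr1:44739818-44767767), had 49.6, 38.9 and 23.4 CPM after curcumin against 66.2, 88.0 and 49.2 CPM in untreated cells. Here curcumin replicate 1 lay just above untreated replicate 3, and the call (log2 -0.86 ± 0.28, edgeR adjusted p = 0.025) was lost when untreated replicate 1 or 2 or curcumin replicate 2 was dropped (adjusted p = 0.056, 0.097 and 0.057).

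KIF11, or Eg5, the motor that pushes the spindle poles apart and the target of spindle inhibitors, had 26.8, 21.4 and 18.6 CPM after curcumin against 24.95, 53.9 and 23.3 CPM in untreated cells. Untreated replicate 2 alone stood high, and KIF11 was not called (log2 -0.61 ± 0.31, edgeR adjusted p = 0.12; called with no filter, 0.020). KIF15, which shares the pole-separating task, had a log2 fold change of -0.51 ± 0.26 and was not called. KIFC1, a minus-end motor that gathers spindle poles and surplus centrosomes, had 47.6, 47.5 and 39.7 CPM after curcumin against 43.0, 82.2 and 27.5 CPM in untreated cells. These values enclose one another, and the log2 fold change was -0.18 ± 0.33 (adjusted p = 0.67).

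No chromosome-arm or cytokinesis motor among the tested members was called. KIF23, also a cytokinesis motor, is not among the 41 genes, so the class does not cover it. KIF4A, a chromokinesin that also shortens the central spindle with PRC1, averaged 43.5 ± 4.86 CPM after curcumin and 43.7 ± 18.3 CPM in untreated cells (SD, n = 3 each). Its log2 fold change was -0.01 ± 0.27. KIF22, another chromokinesin, averaged 56.8 ± 16.7 and 65.8 ± 30.1 CPM in curcumin and untreated cells. KIF20A, which brings the chromosomal passenger complex to the central spindle, had 31.7, 31.2 and 32.0 CPM after curcumin against 33.7, 70.9 and 22.8 CPM in untreated cells. The curcumin libraries were nearly equal, whereas the untreated ones spanned the widest range of any mitotic kinesin relative to their mean. KIF20B, KIF14 and KIF18B, which act in cytokinesis or on astral microtubules, had log2 fold changes of -0.38 ± 0.39, -0.50 ± 0.35 and -0.34 ± 0.27, and KIF20B was called lower without curcumin replicate 3 (-0.89, edgeR adjusted p = 0.045).

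Untreated replicate 2 was the highest of the 6 libraries for all 12 tested mitotic kinesins, against 7 of 14 transport kinesins and 18.5% of all tested genes. Summed over the class, mitotic kinesins reached 368, 327 and 289.6 CPM after curcumin against 386, 649.6 and 303 CPM in untreated cells. The median coefficient of variation of a mitotic kinesin was 18.3% among curcumin libraries and 41.5% among untreated libraries, where transport kinesins had 13.7% and 14.2%. The 16 G2 and M phase markers moved with them: they summed to 1044, 996 and 816 CPM after curcumin against 929, 1904 and 769.8 CPM in untreated cells. Of these markers 6 fell and 2 rose, where 28.9% and 27.2% of all tested genes did (median log2 fold change -0.50). Without untreated replicate 2 the counts were 3 and 3, where 3677 and 3655 of 14173 tested genes fell and rose. The marker median was then 0.007. CENPF, TTK and MKI67 fell (log2 -1.70 ± 0.28, -1.48 ± 0.32 and -1.69 ± 0.35), while PTTG1 and UBE2C rose (0.92 ± 0.29 and 0.76 ± 0.25), neither called with library size alone or with the length trend removed. MKI67 had no call with that trend removed (-0.81, edgeR adjusted p = 0.10). PTTG1 had no call without untreated replicate 1 or curcumin replicate 2 (edgeR adjusted p = 0.063 and 0.052), nor UBE2C without untreated replicate 1 or 3 or curcumin replicate 2 (0.097, 0.078 and 0.087). All 16 markers were highest among untreated libraries in replicate 2, where 36.9% of all tested genes were. Replicate 2 was the highest of all 6 libraries for 13 of the 16, against 18.5% of all tested genes. Their part in the mitotic kinesin values was not tested. Without untreated replicate 2 the median of the mitotic class was -0.02 with 2 lower and 1 higher, the riser being KIF4B, which passes the filter only in that setting and a few others. Transport kinesins summed to 708, 739 and 809 CPM after curcumin against 734, 867 and 818 CPM in untreated cells. The sum of the mitotic over that of the transport class, which no scaling alters, was 0.519, 0.443 and 0.358 after curcumin against 0.526, 0.750 and 0.370 in untreated cells. The ratios of the classes overlapped between the groups, with untreated replicate 2 again the highest. In bulk RNA, fewer dividing cells and less kinesin RNA per dividing cell cannot be told apart.

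**Figure D2:**
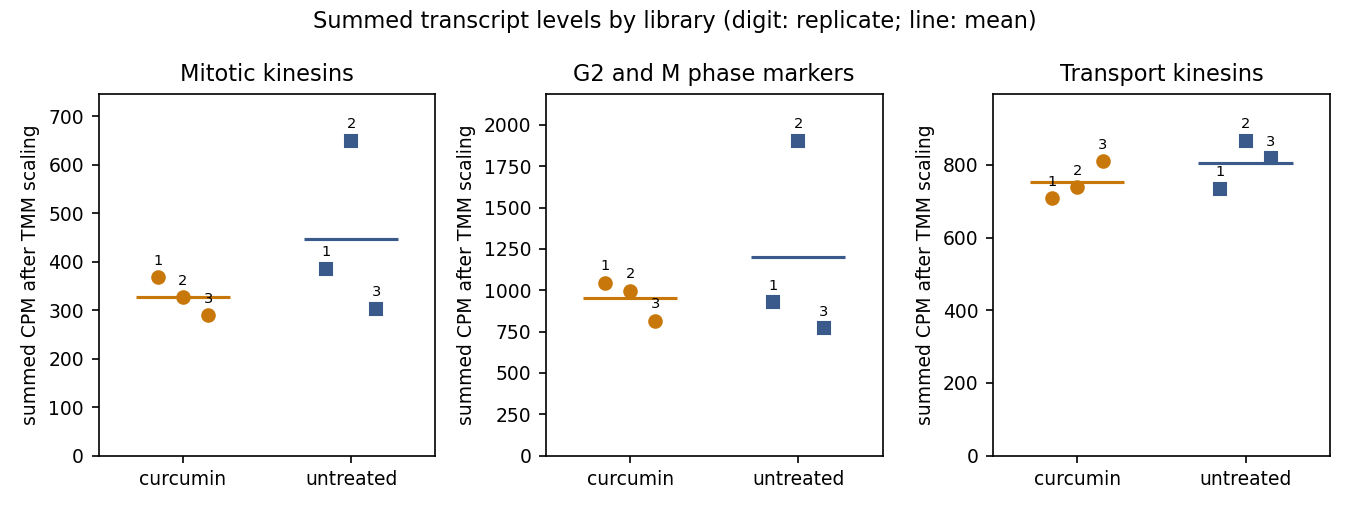
Summed CPM after TMM scaling (y, from 0) of the mitotic kinesins, of the 16 G2 and M phase markers and of the transport kinesins in curcumin and untreated libraries (x). Each point is 1 library with its replicate digit, and the line is the mean of 3; untreated replicate 2 stands at 649.6 CPM for mitotic kinesins and 1904 CPM for the markers, above all other libraries.

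Most mitotic kinesin promoters held a cell cycle element that few other kinesin promoters held. RefSeq windows of 300 bases, 250 before to 50 after a gene's start (GRCh38.p14), were at hand for 33 of the 41 kinesins, 42 windows in all. The CHR element, which the cell cycle-dependent DREAM and MuvB complexes bind in late cell cycle genes, was searched as TTTGAA on both strands (TTCAAA on the other). It was present for 9 of 14 mitotic, 1 of 11 transport and 0 of 8 other kinesins. Over all promoters it was present for 4961 of 27305 genes and in 15.2% of the 35116 windows. The CCAAT box, bound by NF-Y, was searched as CCAAT on both strands (ATTGG on the other). It was present for 10 of 14 mitotic, 4 of 11 transport and 3 of 8 other kinesins. All promoters held it for 10846 of 27305 genes and in 34.6% of windows. These 6-letter and 5-letter motifs do not overlap each other in the windows printed here. Both together were present for 8 of 14 mitotic genes and in 5.90% of all windows, the latter a share per window and not per gene. The 10 CHR matches of the class lay from 35 bases before to 31 bases after the start, measured at the first base of the match. Of the 9 genes with the element, KIF18A fell and KIF4B was below the filter. The others, KIF11, KIF14, KIF15, KIF18B, KIF20B, KIF4A and KIFC1, were not called. KIF4B is an intronless copy of KIF4A, and whether their matches are independent was not tested. KIF2A and KIF2C, which fell, held neither motif in this window. A match is a description of letters only.

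The windows of KIF11 (chr10:92592880-92593179, plus strand), KIF18A (chr11:28108107-28108406, minus strand) and KIFC1 (chr6:33391573-33391872, plus strand) are printed to show the arrangement, and that of KIF3A (chr5:132737497-132737796, minus strand), the transport kinesin that fell most, to show a window with neither motif. Capitals mark the CHR element (TTTGAA or TTCAAA) and the CCAAT box (CCAAT or ATTGG), and each line runs 5′ to 3′ on the gene's strand.
KIF11: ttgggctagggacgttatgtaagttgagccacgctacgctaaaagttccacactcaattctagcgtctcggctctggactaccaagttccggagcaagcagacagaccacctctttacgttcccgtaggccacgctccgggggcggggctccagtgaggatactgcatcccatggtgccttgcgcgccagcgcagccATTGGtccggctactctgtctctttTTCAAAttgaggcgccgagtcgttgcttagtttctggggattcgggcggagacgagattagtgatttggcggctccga
KIF18A: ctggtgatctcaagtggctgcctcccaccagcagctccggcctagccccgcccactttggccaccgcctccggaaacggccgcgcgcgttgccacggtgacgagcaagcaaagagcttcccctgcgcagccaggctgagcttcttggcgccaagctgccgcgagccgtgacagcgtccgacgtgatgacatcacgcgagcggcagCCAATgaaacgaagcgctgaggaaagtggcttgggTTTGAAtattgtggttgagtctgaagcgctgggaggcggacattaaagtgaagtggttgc
KIFC1: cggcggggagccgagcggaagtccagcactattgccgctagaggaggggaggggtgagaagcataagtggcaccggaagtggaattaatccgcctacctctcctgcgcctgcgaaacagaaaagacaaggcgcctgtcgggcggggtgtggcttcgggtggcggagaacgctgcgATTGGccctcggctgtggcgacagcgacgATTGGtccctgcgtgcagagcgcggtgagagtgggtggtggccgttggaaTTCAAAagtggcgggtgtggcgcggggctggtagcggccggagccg
KIF3A: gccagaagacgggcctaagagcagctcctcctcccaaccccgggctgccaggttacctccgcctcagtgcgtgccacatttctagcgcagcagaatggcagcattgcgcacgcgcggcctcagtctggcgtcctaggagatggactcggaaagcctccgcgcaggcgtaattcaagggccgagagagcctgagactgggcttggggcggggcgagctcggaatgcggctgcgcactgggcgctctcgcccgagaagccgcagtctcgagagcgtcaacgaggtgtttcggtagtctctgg
In KIF11 the CCAAT box begins 53 bases and the CHR element 28 bases before the start, and in KIF18A they begin 45 and 10 bases before it. In KIFC1 a pair of CCAAT boxes stands 75 and 46 bases before the start and the CHR element 5 bases after it.

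Transport kinesins divided into falling and rising motors. Of 14 tested, 8 fell, 3 rose and 3 had no call (57.1% and 21.4%, where 28.9% and 27.2% of all genes were lower and higher), with a median log2 fold change of -0.62. The falls took in the kinesin-2 pair KIF3A and KIF3B and the endosomal motors KIF13A, KIF13B and KIF16B. The rises were KIF1C, KIFC2 and KIFC3. With the length trend removed 4 fell and 3 rose, where 22.1% and 25.6% of all genes did, and the median was -0.11. Under library size alone 10 fell and none rose, where 56.5% and 9.62% of all genes did. All 3 risers turned below 0 there without a call.

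KIF3A and KIF3B form the heterotrimeric kinesin-2 with the adaptor KIFAP3, the motor that carries cargo outward along cilia. KIF3A (chr5:132692628-132737638, 17 exons) had 5.91, 5.95 and 5.16 CPM after curcumin against 20.8, 23.0 and 22.1 CPM in untreated cells. That is a 3.87-fold fall, the deepest among transport kinesins in the edgeR fit (log2 -1.95 ± 0.19, adjusted p = 3.2e-05). KIF3B (chr20:32277664-32335011) had 29.4, 31.6 and 30.0 CPM after curcumin against 68.6, 87.0 and 73.3 CPM in untreated cells (log2 -1.33 ± 0.15, edgeR adjusted p = 7.2e-05). Replicates of both genes were tight and the groups far apart, and both calls were kept with the length trend removed (log2 -1.38 and -0.80, adjusted p = 0.00038 and 0.0025). KIF3C, which pairs with KIF3A in place of KIF3B and is best known from neurons, had 20.4, 18.3 and 14.6 CPM after curcumin against 19.9, 16.9 and 23.3 CPM in untreated cells and was not called (log2 -0.17 ± 0.20, edgeR adjusted p = 0.49). KIFAP3 itself averaged 16.4 ± 2.27 CPM after curcumin and 14.3 ± 1.57 CPM in untreated cells (log2 0.20 ± 0.19, edgeR adjusted p = 0.39; -0.59, adjusted p = 0.031 with library size alone).

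Because these genes were measured in the same libraries, their proportions do not depend on the scaling between libraries. KIF3C made up 39.9%, 35.9% and 32.3% of the length-scaled KIF3 transcripts after curcumin against 20.4%, 15.1% and 21.9% in untreated cells. This total covers KIF3A, KIF3B and KIF3C, and KIF17 was not counted. KIF3A made up 9.75 ± 0.114% after curcumin and 17.6 ± 0.384% in untreated cells (SD, n = 3 each). KIF3C counts were 3.12 ± 0.313 times those of KIF3A after curcumin and 0.916 ± 0.162 times in untreated cells. These ratios did not overlap between groups, although 3 libraries against 3 cannot reach an exact permutation p below 0.1, and no test was made.

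The endosomal motors of the kinesin-3 family fell together. KIF13A, which carries cargo to the cell surface and recycling endosomes (chr6:17759183-17987623), had 9.64, 13.6 and 10.0 CPM after curcumin against 27.2, 31.5 and 30.3 CPM in untreated cells (log2 -1.42 ± 0.19, edgeR adjusted p = 0.00020). KIF13B, its close relative, had 11.1, 13.8 and 11.6 CPM after curcumin against 30.3, 24.1 and 36.3 CPM in untreated cells (log2 -1.31 ± 0.20). KIF16B, an early endosome motor, had 6.13, 5.55 and 5.47 CPM after curcumin against 9.59, 10.1 and 9.52 CPM in untreated cells (log2 -0.77 ± 0.22, edgeR adjusted p = 0.013). No library of one group reached the other in any of these 3 genes. KIF13A and KIF13B kept their calls with the length trend removed, and KIF16B did not (log2 -0.34, adjusted p = 0.24).

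KIF1B and KIF1C, related kinesin-3 motors, moved in opposite directions. KIF1B, which moves mitochondria and synaptic vesicle precursors (chr1:10210805-10381603, 49 exons), had 30.1, 35.6 and 69.0 CPM after curcumin against 84.3, 112 and 109 CPM in untreated cells. It fell (log2 -1.18 ± 0.28, edgeR adjusted p = 0.0051), with curcumin replicate 3 the nearest to the untreated range, and was not called with the length trend removed (-0.42, adjusted p = 0.15). KIF1C, a fast carrier of secretory vesicles and mRNA (chr17:4997948-5028401, 23 exons), had 278, 292 and 329 CPM after curcumin against 169, 232 and 206.5 CPM in untreated cells. It rose (log2 0.57 ± 0.16, edgeR adjusted p = 0.010), more so with the length trend removed (1.27, adjusted p = 0.00014), but turned to -0.25 (adjusted p = 0.20) under library size alone and was not called without untreated replicate 1 (0.44, adjusted p = 0.056). Of the length-scaled KIF1 transcripts, KIF1C took 90.3 ± 3.26% after curcumin and 72.8 ± 0.869% in untreated cells, a proportion free of the scaling. In counts, KIF1C stood at 7.4 ± 2.33 times KIF1B after curcumin and 1.99 ± 0.0862 times in untreated cells. KIF1A, the neuronal member, had 0 or 1 counts after curcumin and 1 or 2 counts in untreated libraries and was below the filter.

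**Figure D3:**
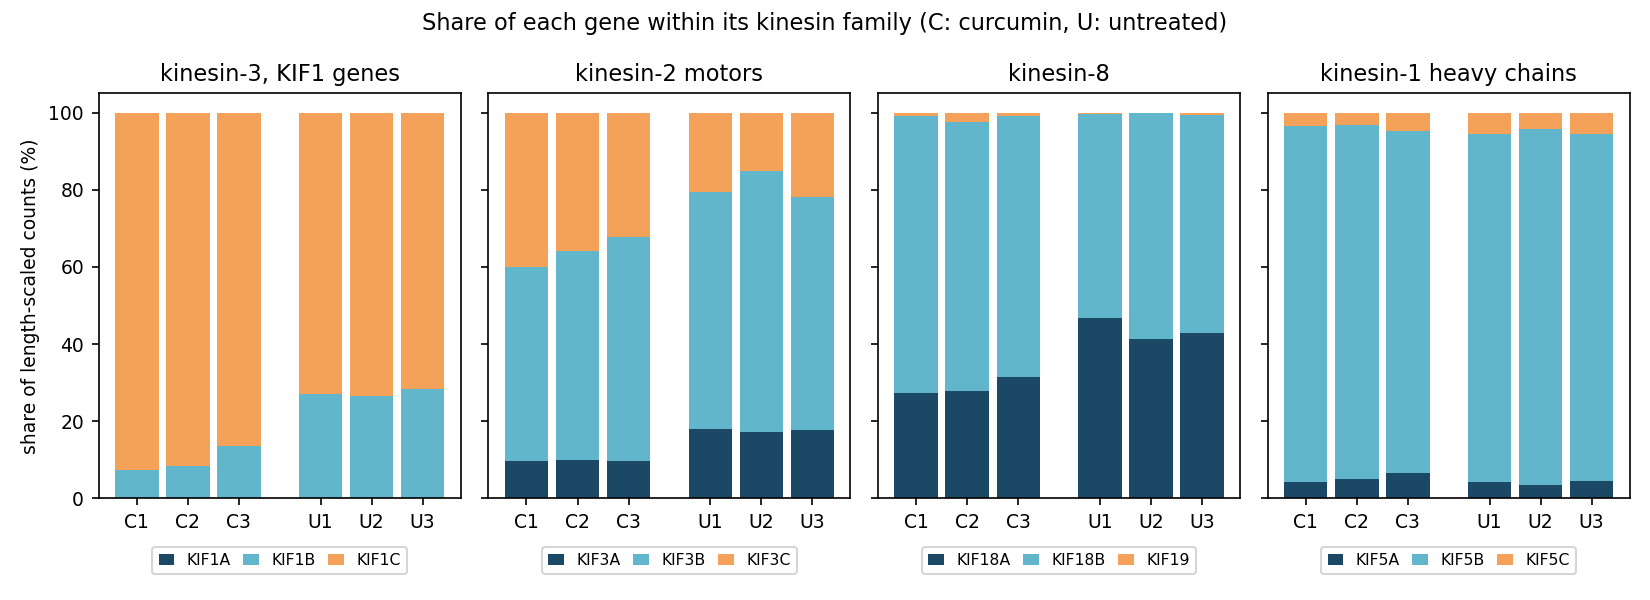
Share in percent (y, from 0) of each gene in the length-scaled counts of its family, per library (x, with C1 to C3 curcumin and U1 to U3 untreated). The kinesin-2 panel counts KIF3A, KIF3B and KIF3C alone, without KIF17. KIF1C takes 90.3 ± 3.26% of the KIF1 genes after curcumin and 72.8 ± 0.869% in untreated cells and KIF18B 69.9 ± 2.02% and 56.1 ± 2.77% of kinesin-8, while KIF5B keeps 90.9 ± 2.05% and 90.9 ± 1.19% of the kinesin-1 heavy chains.

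Of the kinesin-1 heavy chains, the general plus-end carriers, KIF5B and KIF5C fell and KIF5A had no call. KIF5B, the form found in most tissues (chr10:32009010-32056431), had 131, 126 and 129.6 CPM after curcumin against 158, 215 and 161 CPM in untreated cells. Its fall was small (log2 -0.47 ± 0.15, edgeR adjusted p = 0.025) and not called when untreated replicate 2 or curcumin replicate 1 or 2 was dropped (adjusted p = 0.057, 0.059 and 0.085), nor with the length trend removed (0.035, adjusted p = 0.87). KIF5C, mainly a neuronal form, averaged 6.35 ± 1.75 CPM after curcumin and 11.6 ± 0.240 CPM in untreated cells (log2 -0.87 ± 0.25, edgeR adjusted p = 0.013; -0.26, adjusted p = 0.38 with the length trend removed). KIF5A, also neuronal, averaged 7.47 ± 1.83 and 7.74 ± 0.495 CPM in curcumin and untreated cells and was not called. KIF5B held 90.9 ± 2.05% of the length-scaled heavy chain transcripts after curcumin and 90.9 ± 1.19% in untreated cells, so its share moved by less than the spread.

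The C-terminal motors KIFC2 and KIFC3 walk towards the minus end and rose in the edgeR fit, although both turned below 0 under library size alone (log2 -0.13 and -0.19, adjusted p = 0.53 and 0.35). KIFC3, which works at adherens junctions and in apical transport in epithelia (chr16:57758217-57863053), had 95.7, 96.2 and 79.8 CPM after curcumin against 63.6, 50.3 and 64.2 CPM in untreated cells (log2 0.61 ± 0.16, edgeR adjusted p = 0.0076). KIFC2, described in mouse neurons, had 75.7, 87.2 and 103 CPM after curcumin against 62.4, 43.4 and 60.7 CPM in untreated cells (log2 0.68 ± 0.19, edgeR adjusted p = 0.010). Both were called higher with the length trend removed (0.71 and 0.81). KIF17, a dendritic and ciliary motor, stayed between 0.823 and 3.52 CPM and was not called (log2 0.93 ± 0.55).

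Among kinesins that are neither mitotic nor cargo carriers, 3 of 9 tested fell and 2 rose (33.3% and 22.2%, near the 28.9% and 27.2% of all tested genes). KIF21B, which pauses microtubule growth and is known from neurons and immune cells (chr1:200969390-201023700), had 3.81, 5.24 and 4.77 CPM after curcumin against 23.1, 18.0 and 34.0 CPM in untreated cells. This 5.43-fold fall was the largest of the 35 tested kinesins in the edgeR fit (log2 -2.44 ± 0.28, adjusted p = 6.9e-05; -1.63 with the length trend removed). KIF21A, which restrains microtubule growth at the cell cortex, fell less (11.9 ± 1.95 CPM after curcumin and 27.3 ± 2.28 CPM in untreated cells). KIF26A, a kinesin without motility that restrains growth factor signalling in mouse enteric neurons (chr14:104138723-104180894), had 14.1, 11.3 and 11.2 CPM after curcumin against 31.2, 41.3 and 37.8 CPM in untreated cells (log2 -1.59 ± 0.19, edgeR adjusted p = 8.6e-05). Its relative KIF26B had 3 to 14 counts after curcumin and 25 to 92 in untreated cells, with no call (log2 -1.77 ± 0.70, edgeR adjusted p = 0.054). KIF26B was called with library size alone (adjusted p = 0.0057), with DESeq2 (0.041), with the replicate block (0.028), with no filter (0.028) and without untreated replicate 1 or curcumin replicate 3 (0.045 and 0.023).

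KIF9, a motor of motile cilia and sperm flagella (chr3:47228026-47283451, 21 exons), showed the largest called rise among the 35 tested kinesins in the edgeR fit. It had 10.5, 10.6 and 16.7 CPM after curcumin against 4.32, 3.99 and 4.72 CPM in untreated cells (2.90-fold, log2 1.53 ± 0.26, edgeR adjusted p = 0.00074). Among the 5 risers it was the one still called under library size alone (0.72, adjusted p = 0.030). An antisense gene, KIF9-AS1, and the coding gene KLHL18 overlap KIF9 on the opposite strand, and whether counting used strand is not stated. KIF12, linked to bile duct disease, had 12.9, 8.33 and 7.90 CPM after curcumin against 6.33, 3.62 and 5.00 CPM in untreated cells (log2 0.96 ± 0.30, edgeR adjusted p = 0.021). That call was lost with the length trend removed (0.68, adjusted p = 0.081), by library size scaling (0.18, adjusted p = 0.65) and when untreated replicate 2 or 3 or curcumin replicate 1 was dropped (adjusted p = 0.067, 0.062 and 0.087). Of the ciliary genes KIF24, KIF27 and KIF7, none was called (edgeR adjusted p = 0.13, 0.44 and 0.98). In all, 23 of the 41 kinesins overlap a gene on the opposite strand, 8 of them a coding gene (KIF18A, KIF2A, KIF4A, KIF20A, KIFC2, KIF7, KIF24 and KIF9), and the values of these genes are uncertain to that extent.

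**Figure D4:**
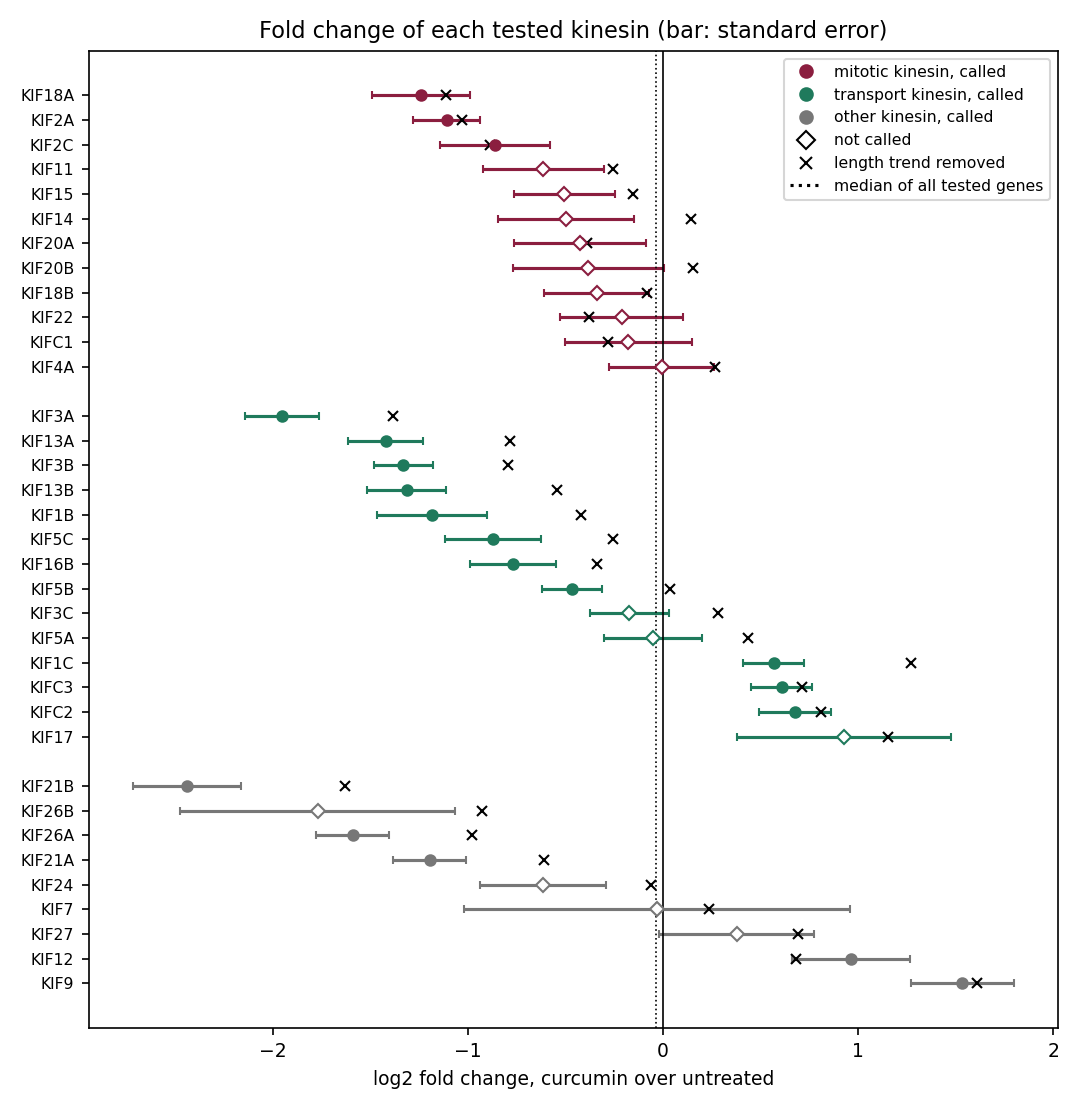
log2 fold change, curcumin over untreated (x), with its standard error, for the 35 tested kinesins (y), mitotic above transport above other. Filled circles passed the edgeR test and open diamonds did not; crosses give the value with the length trend removed, the dotted line the median of all tested genes at -0.04. Of the 14 filled circles left of 0, 3 are mitotic, 8 transport and 3 other kinesins.

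Another 6 kinesins were below the filter. KIF4B, an intronless copy of KIF4A on chromosome 5, had 12, 8 and 59 counts after curcumin against 0 in each untreated library, at least 17.3-fold higher against a floor of 3 counts per untreated library, under TMM scaling only. Most of these counts lay in curcumin replicate 3, and reads of so similar a pair as KIF4A and KIF4B may be shared out during counting in a way not stated. KIF2B was 0 in all 6 libraries, which allows up to 0.238 CPM in a curcumin and 0.123 CPM in an untreated library, for counting error only. KIF6, KIF19 and KIF25 had at most 10 counts in any library.

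Transcripts of tested kinesins are long, and the fold changes of all coding genes fell with length in these libraries. Split by length into 5 groups, coding genes had medians of 0.81 in the shortest (207 to 1955 bases) and -0.72 in the longest (from 5747 bases). The longest coding transcript had a median of 3892 bases in tested mitotic, 5990 bases in transport and 6131 bases in other kinesins. KIF18A, KIF2A and KIF2C, of 2955 to 3568 bases, lay in a length group whose median was -0.08. KIF3A, KIF13A, KIF13B, KIF3B and KIF21B, of 6103 to 9897 bases, lay in the longest group, and these 5 kept their calls with the trend removed, as did KIF21A and KIF26A. The calls of KIF5B, KIF1B, KIF5C and KIF16B, and the rise of KIF12, were lost. KIF1C, of 7919 bases, rose against that trend.

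**Figure D5:**
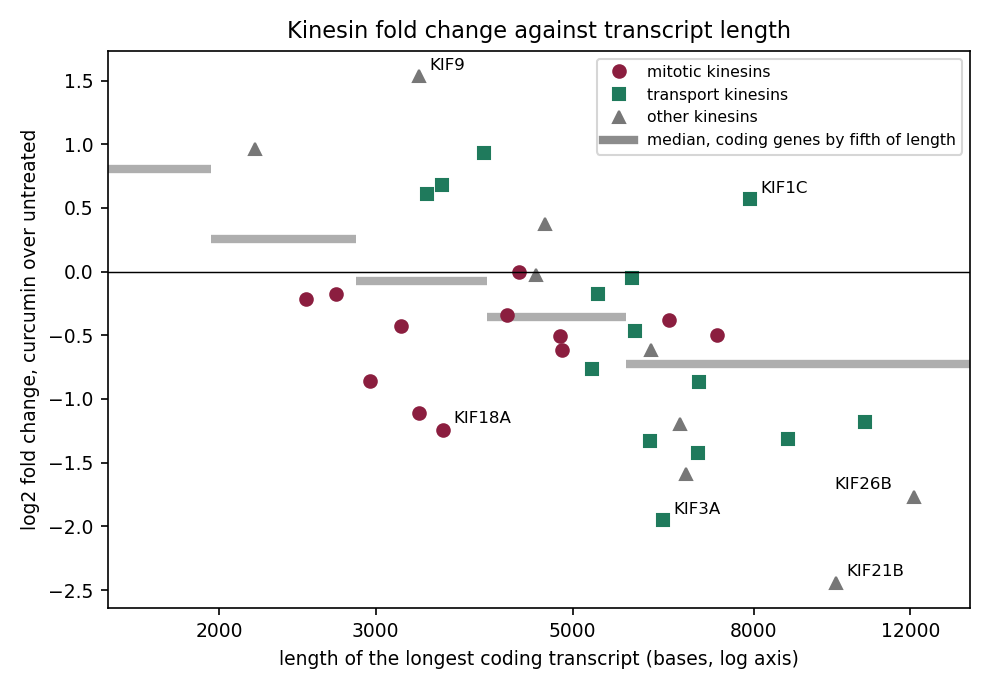
log2 fold change, curcumin over untreated (y), against the length in bases of the longest coding transcript on a log axis (x) for the 35 tested kinesins, by class. Grey bars give the median of tested coding genes in each of 5 length groups, 0.81 for the shortest and -0.72 for the longest, the outer bars being clipped; KIF1C and KIF9 lie above and KIF3A and KIF21B below the bars.

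Levels compared between genes are per kilobase of that transcript. In untreated cells KIF5B (30.3 ± 5.50 CPM per kb), KIF22 (26.3 ± 12.0), KIF1C (25.6 ± 3.98) and KIF2C (22.9 ± 6.57) stood highest, without a difference beyond their spread (SD, n = 3 each). After curcumin KIF1C (37.9 ± 3.35 CPM per kb) stood first, ahead of KIFC3 (26.4 ± 2.72), KIFC2 (24.9 ± 3.88), KIF22 (22.7 ± 6.68) and KIF5B (21.9 ± 0.431), and neighbours among those 4 did not differ beyond their spread. At the low end of the tested transport motors stood KIF17, with 0.697 ± 0.327 CPM per kb after curcumin and 0.366 ± 0.170 in untreated cells.

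Kinesins known by other symbols fell too. CENPE, the kinetochore kinesin, had 6.95, 4.92 and 5.63 CPM after curcumin against 14.1, 20.2 and 10.2 CPM in untreated cells (log2 -1.35 ± 0.29, edgeR adjusted p = 0.0027; -0.61, adjusted p = 0.13 with the length trend removed). STARD9, a centrosomal kinesin with a very long transcript, averaged 5.80 ± 1.92 and 10.5 ± 2.54 CPM in curcumin and untreated cells (edgeR adjusted p = 0.032), and had no call with the length trend removed (0.030, adjusted p = 0.93) or without curcumin replicate 1 or 2 (0.090 and 0.093) or untreated replicate 2 or 3 (0.059 and 0.13).

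Partners of the transport motors moved both ways. Of 19 tested, 9 fell and 4 rose, where 28.9% and 27.2% of all tested genes did (median log2 fold change -0.14). With library size alone 14 fell and none rose, where 56.5% and 9.62% of all genes did. The kinesin-1 light chains, which bind cargo, rose for KLC2, KLC3 and KLC4 (log2 0.84 ± 0.17, 0.96 ± 0.17 and 0.89 ± 0.24, edgeR adjusted p = 0.0023, 0.0010 and 0.010), none of them called under library size alone (0.03, 0.16 and 0.10). KLC2, for example, had 157, 156 and 148 CPM after curcumin against 73.1, 109 and 75.3 CPM in untreated cells. KLC1 was not called (log2 -0.12 ± 0.13, edgeR adjusted p = 0.43) and was called higher with the length trend removed (0.78, adjusted p = 0.0023). FYCO1, an adaptor that links late endosomes and autophagosomes to kinesin, fell most (10.3 ± 1.12 CPM after curcumin and 37.2 ± 9.23 CPM in untreated cells). TRAK2, the mitochondrial adaptor, had 17.1, 15.5 and 16.4 CPM after curcumin against 35.8, 39.0 and 40.1 CPM in untreated cells (log2 -1.23 ± 0.16, edgeR adjusted p = 0.00013).

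Of 17 tested spindle partners of the mitotic kinesins, 3 fell and 1 rose (median -0.09), where 28.9% and 27.2% of all genes did. BIRC5, or survivin, of the chromosomal passenger complex, rose, with 218, 227 and 220.2 CPM after curcumin against 103, 167 and 72.1 CPM in untreated cells (log2 0.96 ± 0.26, edgeR adjusted p = 0.0093; 0.15, adjusted p = 0.62 with library size alone). INCENP, of the same complex, fell (log2 -1.11 ± 0.31), as did the microtubule polymerase CKAP5 (-0.88 ± 0.20) and PSRC1, a spindle-stability protein (-1.04 ± 0.25). CKAP5 was not called with the length trend removed (-0.21, adjusted p = 0.48). Without untreated replicate 2, 5 of the 17 rose and 3 fell, where 3655 and 3677 of 14173 tested genes did.

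Dynein, the motor that walks the opposite way, works with its activator dynactin. Of 20 tested subunits and regulators, 6 rose and 4 fell, where 27.2% and 28.9% of all tested genes did (median log2 fold change 0.03). Scaling by library size gave 1 that rose and 13 that fell, where 9.62% and 56.5% of all genes did. The dynactin subunits DCTN2 and DCTN1 rose (log2 1.17 ± 0.13 and 0.96 ± 0.13, edgeR adjusted p = 5.7e-05 and 0.00018), although DCTN1 had no call when scaled by library size (0.15, adjusted p = 0.37). DCTN1 had 313, 308 and 320.4 CPM after curcumin against 157, 174 and 155 CPM in untreated cells. The light chain DYNLRB1 also rose (log2 1.09 ± 0.15), with no call when scaled by library size (0.29, adjusted p = 0.16). The dynein regulators PAFAH1B1 (LIS1) and NDE1 fell (-0.66 ± 0.15 and -0.78 ± 0.19), as did the dynactin subunit DCTN5 (-0.65 ± 0.22). PAFAH1B1 was not called with the length trend removed (-0.20, adjusted p = 0.23), and DCTN5 turned to 0.14 there (adjusted p = 0.50). The DCTN5 call was also lost without untreated replicate 2 or 3 (0.054 and 0.081) or curcumin replicate 1 or 2 (0.086 and 0.11).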

How the data were processed

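HCT116 cells were lysed for RNA, and a SMARTer mRNA-Seq kit served for the libraries, per the labels' protocols. The authors deposited estimated counts per gene (expected read counts, not all whole) with no scaling between libraries. Which aligner and counter were used is not given in the sources used here. Mouse builds (GRCm38, mm10) stand in the submitters' processing notes, but all 35106 identifiers are human, and 35003 of them, all 41 kinesins included, were found in GENCODE 29 (GRCh38), which gave positions and lengths.

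Counts were rounded, filtered with filterByExpr (minimum count 10, total 15) and tested with edgeR 4.0.16 (R 4.3.3, quasi-likelihood, TMM factors, no other term) on the whole table. The method was tested on simulated data in which few genes changed and none by length. That test does not cover changes as wide as those seen here. Standard errors are of log2 fold changes, curcumin over untreated. Alternatives were DESeq2 1.42.0, library size alone, RLE factors (median of ratios), the table unfiltered or kept at a mean of 50 counts or more, limma-voom (limma 3.58.1), the replicate number as a block, a loess correction for transcript length (span 0.3), KIF2A left out and each replicate left out. Length is that of the longest coding transcript.

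All kinesins may be named. From each partner or marker list the 3 members with the smallest adjusted p in each direction are named, with CENPE, STARD9, KLC1 to KLC4 and KIFAP3. Not every gene so selected is reported here. Members and lists were chosen with earlier results of these data known.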

Additional observations from a re-analysis of the deposited data

Results flagged for a closer look

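KIF28P, a kinesin pseudogene on chromosome 1 that the symbol rule leaves out, had 1, 8 and 20 counts after curcumin against 0 in each of the 3 untreated libraries. It stands out because counts appear above the untreated level in a row that no comparison uses. It was below the filter and was not tested.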

How the results depend on the processing

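Of the 19 called kinesins, all 19 kept call and direction with RLE factors, the unfiltered table, a minimum mean of 50 counts, DESeq2, limma-voom and the replicate block, 15 with library size alone, 14 with the length trend removed, and 16 to 19 with a replicate left out. Library size alone gave 1320 higher and 7744 lower genes in place of 3732 and 3964, 1 higher and 27 lower kinesins in place of 5 and 14, 12 lower mitotic kinesins in place of 3, 0 higher transport kinesins in place of 3, and class medians of -1.27 (mitotic) and -1.42 (transport). The unfiltered table gave 1 higher mitotic kinesin (KIF4B enters the test) and a transport median of -0.85. The length correction gave 4 lower transport kinesins in place of 8 and a median of -0.11, where 22.1% of all genes were lower. Leaving out a replicate gave 0 to 1 higher and 2 to 4 lower mitotic kinesins, and a mitotic median of -0.68 to -0.022, the last without untreated replicate 2. Same-numbered libraries deviated together little (correlations 0.040, 0.023 and 0.111, against -0.085 to 0.039 for the other pairs). Values this small cannot settle whether the numbers mark pairs. The replicate block gave 5 higher and 15 lower kinesins, KIF26B being added.

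Signs turned as follows, and the causes were not tested. With library size alone KIF1C was at -0.25, KIFC3 at -0.19, KIFC2 at -0.13, KIF27 at -0.44, KIFAP3 at -0.59 and UBE2C at -0.044. With the length trend removed KIF5B was at 0.035, KIF7 at 0.24, KIF3C at 0.28, KIF20B at 0.15, KIF14 at 0.14, KIF4A at 0.27, KIF5A at 0.44, DCTN5 at 0.14, STARD9 at 0.030, KLC1 at 0.78 and UBE2C at -0.28. KIF4A was at 0.036 with RLE, DESeq2 and the mean filter, at 0.076 with limma-voom and at 0.07 with the replicate block, and KIF7 at 0.013 with RLE and at 0.015 with DESeq2. With a replicate left out KIF18B ran from -0.54 to 0.038, KIF7 from -1.42 to 0.68, KIF22 from -0.47 to 0.20, KIF20A from -0.74 to 0.15, KIF4A from -0.28 to 0.34, KIF5A from -0.26 to 0.075 and KIFC1 from -0.49 to 0.34, none of them called. Low counts limit KIF7, KIF17 and KIF26B most.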
